A study of Mus musculus with 20 samples.

Results

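The genes described here are the 9 genes of the major histocompatibility complex (MHC) class II pathway named H2-Aa, H2-Ab1, H2-Eb1, Cd74, Ciita, H2-DMa, H2-DMb1, H2-Oa and H2-Ob. They were chosen by symbol, because H2-Eb1 was higher and H2-Ob was lower in several comparisons of the same arrays. Of the 9 genes, 8 have a named probe set, of 19505 genes with one in all; Cd74, the invariant chain gene, was not analysed here. Each of the 8 genes is measured by 1 probe set.

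Gene expression was measured on Clariom S arrays, 1 array per sample and 20 in all, in regulatory T cells (Tregs), the CD4 T cells that hold immune responses in check. The cells, from C57BL/6 mice, were pre-selected on CD4 beads before a CD25+CD4+ sort. The Rheb experiment has 12 arrays, 3 for each of unstimulated WT (wild type), unstimulated KO, stimulated WT and stimulated KO, where KO cells lack Rheb1 and Rheb2. The Rag experiment has 8 arrays, 2 for each of the same kinds of group, where KO cells lack RagA and RagB and stimulation lasted 8 h. The Rheb and Rag proteins are small GTPases that bring growth factor and amino acid signals to the kinase complex mTORC1. The comparisons ask how loss of each GTPase pair and stimulation alter transcript levels in Tregs. The sources used here do not give the stimulus, its duration in the Rheb experiment, the age of the mice, or how and in which cells the genes were deleted. For 6 arrays of the Rheb experiment (unstimulated KO and stimulated WT) 1 label field names the other state, and the groups follow the titles.

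MHC class II molecules present peptides from endosomes to CD4 T cells. H2-Aa and H2-Ab1 encode the alpha and beta chains of the I-A molecule, and H2-Eb1 the beta chain of I-E; C57BL/6 mice carry no working H2-Ea promoter and so have no I-E at the cell surface. Cd74 escorts new class II molecules to the endosome. The H2-DM heterodimer (H2-DMa and H2-DMb1) exchanges its remnant for antigenic peptide, and the H2-O heterodimer (H2-Oa and H2-Ob) inhibits H2-DM. Ciita is the coactivator on which transcription of the class II genes depends. In mice, class II is made mainly by B cells, dendritic cells, macrophages and thymic epithelium, and mouse T cells are known to make little of it.

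Ciita acts through a promoter module, shown here because it is the sequence that class II genes share: an X box bound by the RFX complex and, downstream, a Y box bound by NF-Y. RefSeq promoter entries (GRCm38.p6, 250 bases before to 50 after a transcript start) were matched for 6 of the 9 genes. The module was searched on both strands as GNAAC, 25 to 28 bases, then ATTGG, with letters chosen after the members' promoters had been read. It was found for 5 of the 6 genes and in 0.712% of all 32851 promoter windows, whereas ATTGG alone was found in 37.4% of them. The windows below run 5′ to 3′ along each gene, with GNAAC and ATTGG in capitals.
H2-Aa (chr17:34287859-34287910, minus strand): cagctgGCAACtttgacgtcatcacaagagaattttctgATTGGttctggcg
H2-Eb1 (chr17:34305770-34305820, plus strand): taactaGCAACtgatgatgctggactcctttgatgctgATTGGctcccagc
H2-DMb1 (chr17:34153091-34153142, plus strand): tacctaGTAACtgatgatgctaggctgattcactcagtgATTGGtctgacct
H2-Oa (chr17:34092297-34092348, plus strand): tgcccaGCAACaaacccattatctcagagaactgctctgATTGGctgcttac
H2-Ob (chr17:34238812-34238860, plus strand): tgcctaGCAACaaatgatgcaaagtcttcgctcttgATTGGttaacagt
The spacing was 28 bases for H2-Aa, H2-DMb1 and H2-Oa, 27 for H2-Eb1 and 25 for H2-Ob, and the Y box lay between 43 and 61 bases before the start. H2-Eb1 and H2-Ob, whose knockout differences have opposite signs, both hold the module. The 2 windows of H2-DMa do not hold these letters, and a match or its absence is a description of the window alone. Apart from Ciita on chromosome 16, the measured genes lie on chromosome 17.

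The median log2 signal of an array ranged from 7.67 to 7.77 among the Rheb arrays and from 7.18 to 7.55 among the Rag arrays. Rheb was lower by 0.88 and 0.93 log2 in unstimulated and stimulated Rheb KO, and Rraga, which encodes RagA, by 2.43 and 2.18 in Rag KO; no KO array overlapped a WT array. The partner genes were not called: Rhebl1, which encodes Rheb2, differed by -0.38 (overlapping) and -0.76 (apart) in Rheb KO, and Rragb, which encodes RagB, by -0.08 and -0.22 in Rag KO (both overlapping). So a lower signal was called for 1 gene of each pair, and where on the genes the probes lie was not examined. Rheb also differed by -0.75 in unstimulated Rag KO, without overlap and without being called. Both Rag KO arrays numbered 2 stood apart in granulocyte genes, with a mean over 5 genes of 7.93 unstimulated and 8.15 stimulated against 6.07 to 6.91 on the other 6 Rag arrays. Of 13 T cell and Treg genes, 12 were brighter than 95% of the negative control probes on every Rheb array and 11 on every Rag array. Foxp3, the transcription factor that defines Tregs, was not analysed here.

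All 8 class II genes were above the median of the negative controls on all 20 arrays. Fewer passed the stricter 95th percentile of the negative controls: H2-DMa did on 12 arrays, H2-Aa on 6, H2-Ob on 5, H2-Eb1 on 3, H2-Oa on 2 and H2-Ab1 on 1. Ciita and H2-DMb1 did on 0 arrays. These are signals of a mixed RNA sample, in which fewer cells of a type and less RNA per cell cannot be told apart.

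**Figure D1:**
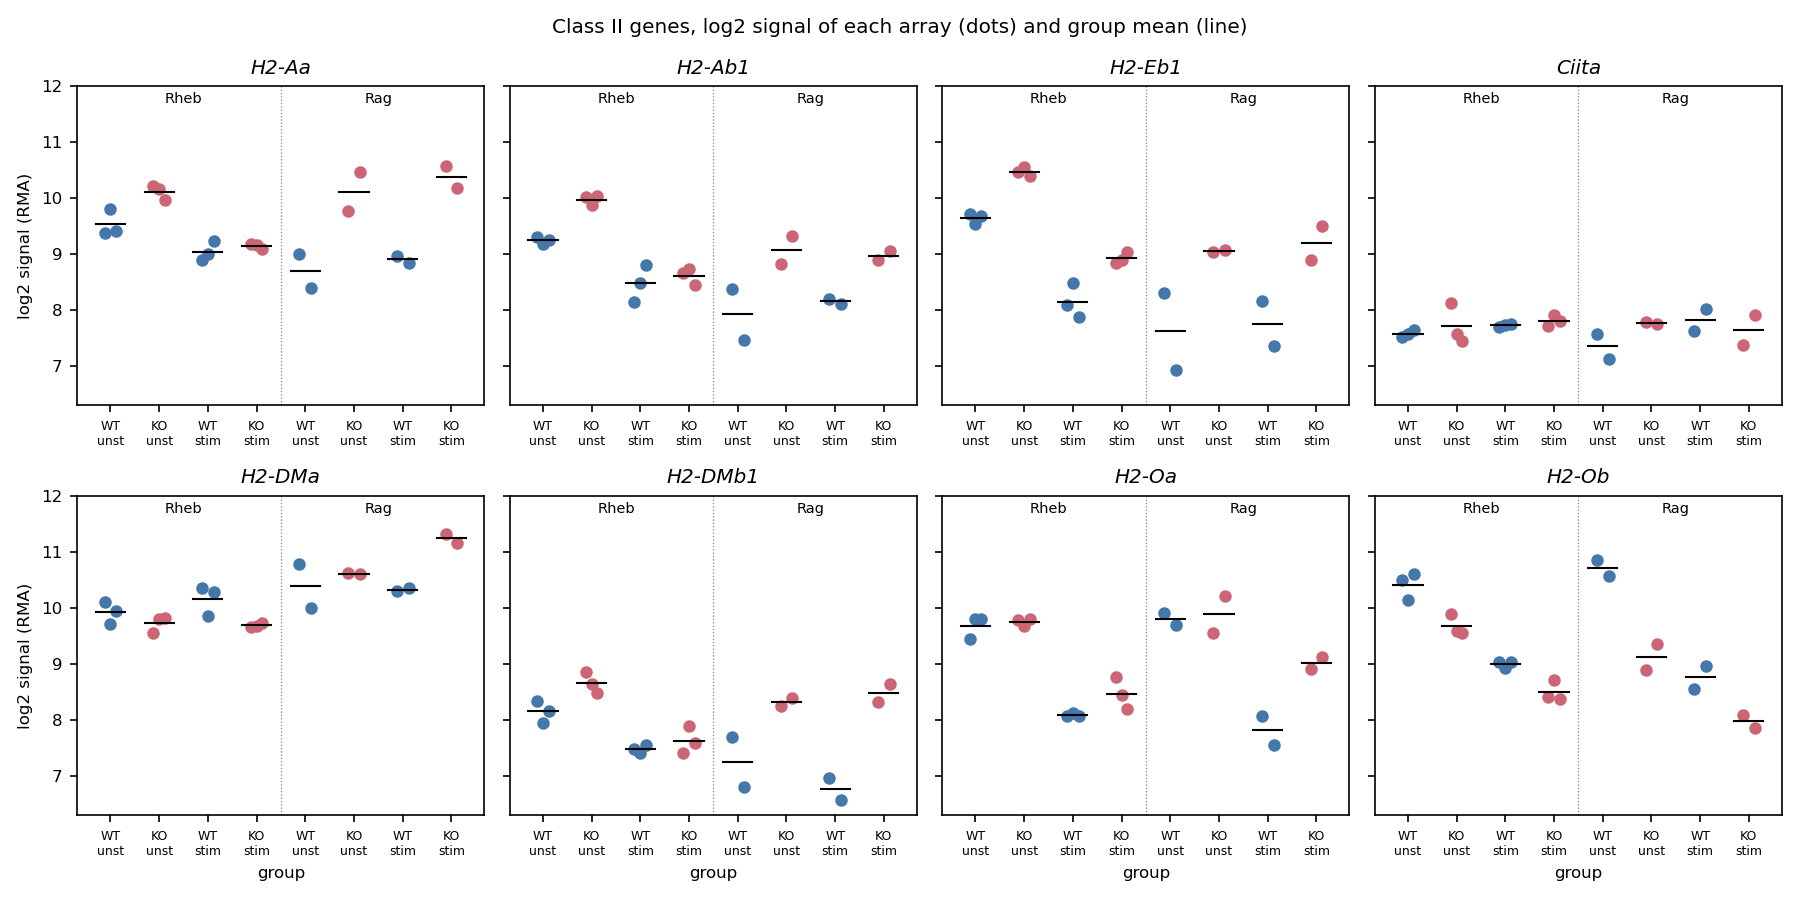
Log2 signal (RMA, y axis) of each class II gene on every array (dots) and the group mean (line), by genotype, state and experiment (x axis). H2-Eb1 is higher in the KO than in the WT arrays of the same state, H2-Ob is lower, and Ciita stays between 7.13 and 8.13.

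The chains of the class II molecule were highest in unstimulated Rheb KO cells within the Rheb experiment. H2-Eb1 measured 9.72, 9.53 and 9.68 in unstimulated WT and 10.47, 10.55 and 10.40 in unstimulated KO. In stimulated cells it measured 8.09, 8.48 and 7.87 in WT and 8.83, 8.89 and 9.04 in KO. The 4 groups did not overlap, in the order unstimulated KO, unstimulated WT, stimulated KO, stimulated WT. The KO arrays were higher by 0.83 ± 0.14 log2 (SE, 1.78-fold) unstimulated and by 0.78 ± 0.14 (1.71-fold) stimulated.

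H2-Ab1 measured 9.30, 9.19 and 9.24 in unstimulated WT and 10.01, 9.87 and 10.03 in unstimulated KO, a difference of 0.73 ± 0.15 (SE). In stimulated cells it measured 8.14, 8.48 and 8.81 in WT and 8.66, 8.74 and 8.44 in KO, a difference of 0.14 ± 0.15. The genotypes were apart when unstimulated and overlapped when stimulated. H2-Aa, its partner chain, measured 9.38, 9.80 and 9.41 in unstimulated WT and 10.21, 10.15 and 9.96 in unstimulated KO, a difference of 0.58 ± 0.13. After stimulation it lay between 8.89 and 9.23 in WT and between 9.09 and 9.18 in KO, so the genotypes overlapped.

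H2-Ob, a subunit of the inhibitor H2-O, went the other way. It measured 10.50, 10.13 and 10.61 in unstimulated WT and 9.88, 9.58 and 9.55 in unstimulated Rheb KO. In stimulated cells it measured 9.03, 8.93 and 9.04 in WT and 8.41, 8.70 and 8.37 in KO. The 4 groups did not overlap, and KO was lower by 0.74 ± 0.14 log2 (SE, 1.67-fold) unstimulated and by 0.50 ± 0.14 (1.42-fold) stimulated. Its partner H2-Oa overlapped between genotypes when unstimulated (0.08 ± 0.14) and was higher in stimulated KO (8.76, 8.44 and 8.18) than in stimulated WT (8.07, 8.12 and 8.07), by 0.37 ± 0.14.

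The H2-DM genes also differed from each other. H2-DMb1 measured 8.34, 7.94 and 8.16 in unstimulated WT and 8.86, 8.64 and 8.48 in unstimulated Rheb KO, a difference of 0.51 ± 0.14 (SE) without overlap. H2-DMa lay between 9.71 and 10.11 in unstimulated WT and between 9.55 and 9.83 in KO, and these overlapped (-0.20 ± 0.14). In stimulated cells H2-DMa was lower in KO (9.65 to 9.74) than in WT (9.85 to 10.35), by 0.47 ± 0.14, and H2-DMb1 overlapped (0.15 ± 0.14). The coactivator gene Ciita measured 7.51, 7.57 and 7.64 in unstimulated WT and 8.13, 7.58 and 7.44 in unstimulated KO. Stimulated, it measured 7.70, 7.73 and 7.74 against 7.71, 7.90 and 7.81. It overlapped between genotypes in both states (0.14 ± 0.15 and 0.09 ± 0.15).

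In the fit over all genes (limma, Benjamini-Hochberg adjusted p under 0.05, the rule by which a gene is called here), H2-Ab1 and H2-Eb1 were called higher and H2-Ob lower in unstimulated Rheb KO. In that comparison 0.226% of all genes were called higher and 0.282% lower. In stimulated Rheb KO only H2-Eb1 was called, against 0.205% of all genes called higher, 0.338% lower and 0.543% in either direction (0.508% when unstimulated). Both comparisons chose the genes, so these counts describe the choice and carry no p. Without overlap of arrays, 4 members were higher and 1 lower in the unstimulated state (7.62% and 7.08% of all genes), and 2 were higher and 2 lower in the stimulated state (6.75% and 8.8%). The median change of the 8 members was 0.33 unstimulated and 0.12 stimulated, against 0.02 and -0.01 over all genes.

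The calls of the Rheb knockout rested on few arrays. In the unstimulated state 0 members were called without WT array 3 or KO array 2. The count was 1 without unstimulated WT array 1, KO array 1 or KO array 3, or without stimulated WT array 2, KO array 1 or KO array 3, and 2 or 3 without any other. In the stimulated state it was 0 without WT array 1 or 3 or any 1 KO array. With all 20 arrays in 1 fit, 0 members were called in either state. Over the fits that left out 1 array, the changes behind these calls kept their direction, with H2-Eb1 between 0.77 and 0.87 unstimulated and between 0.64 and 0.94 stimulated, and H2-Ob between -0.88 and -0.65 unstimulated.

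**Figure D2:**
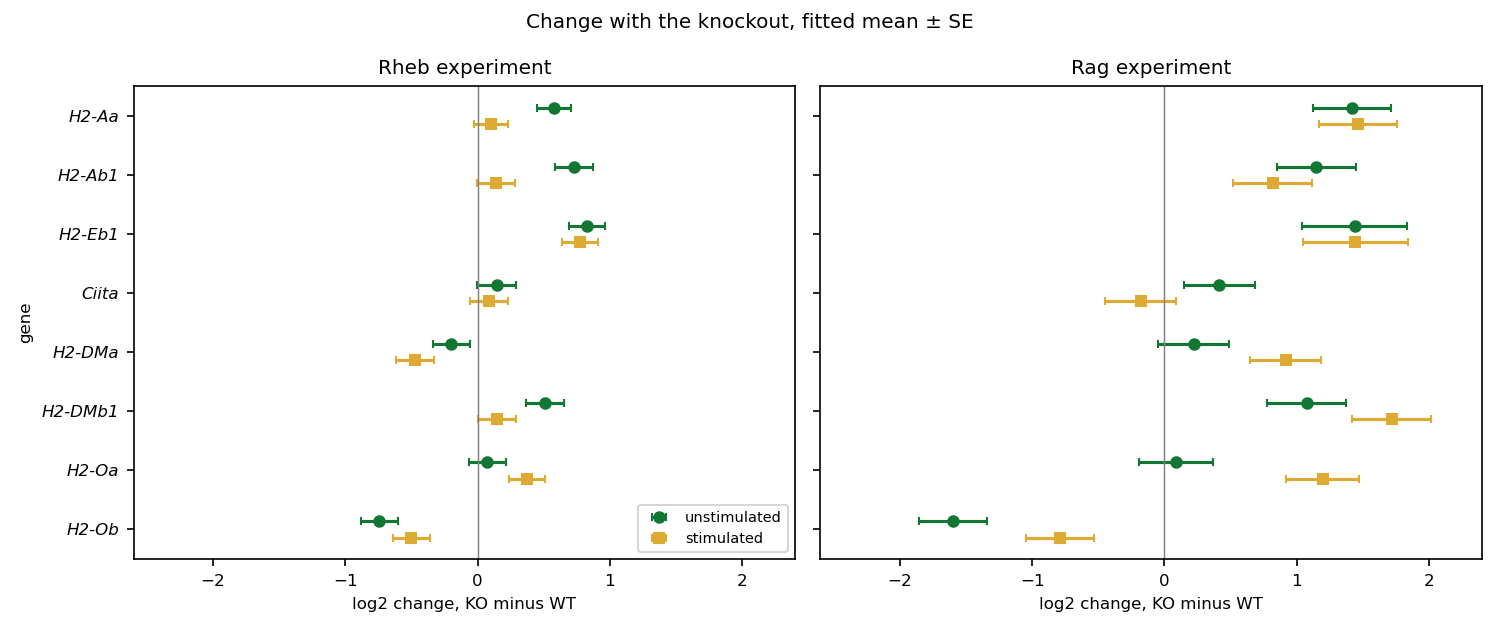
Fitted log2 change, KO minus WT (x axis), of each class II gene (y axis) in the unstimulated and stimulated state, with SE bars, for each experiment. H2-Eb1 lies right of 0 and H2-Ob left of 0 in all 4 comparisons, and the bars are wider in the Rag experiment, with 2 arrays per group.

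In the Rag experiment the chain genes were higher in KO than in WT in both states, with wider errors than in the Rheb experiment. H2-Eb1 measured 8.30 and 6.94 in unstimulated WT and 9.03 and 9.07 in unstimulated Rag KO. Stimulated, it measured 8.15 and 7.35 in WT and 8.89 and 9.49 in KO. No KO array was as low as a WT array of its state, but the unstimulated WT arrays lay far apart. The lower of them, array 2, had the lowest median signal of all arrays (7.18). It also had the lower unstimulated WT value of every other measured class II gene. The differences were 1.44 ± 0.40 (SE, 2.71-fold) unstimulated and 1.44 ± 0.40 (2.72-fold) stimulated. With 1 array left out, the unstimulated difference ranged from 0.76 to 2.12 for H2-Eb1 and from 1.06 to 1.77 for H2-Aa. It ranged from 0.69 to 1.61 for H2-Ab1 and from 0.62 to 1.53 for H2-DMb1.

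H2-Aa measured 8.998 and 8.39 in unstimulated WT against 9.76 and 10.47 in Rag KO, a difference of 1.42 ± 0.30 (SE). Stimulated, it measured 8.97 and 8.84 against 10.57 and 10.17. H2-Ab1 measured 8.38 and 7.47 in unstimulated WT against 8.83 and 9.32 in KO, a difference of 1.15 ± 0.30. The lowest KO array was above the highest WT array for both genes in both states. Stimulated H2-Ab1 measured 8.19 and 8.11 in WT against 8.90 and 9.04 in KO.

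H2-DMb1, the beta subunit of the peptide exchanger, measured 7.70 and 6.79 in unstimulated WT against 8.25 and 8.39 in Rag KO. Stimulated, it measured 6.96 and 6.56 against 8.31 and 8.64. The groups were apart in both states. H2-DMa overlapped in the unstimulated state (10.79 and 9.99 in WT, 10.63 and 10.60 in KO). In the stimulated state it was higher in KO (11.32 and 11.16) than in WT (10.30 and 10.35), whereas stimulated Rheb KO was lower than its own WT.

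H2-Ob measured 10.86 and 10.57 in unstimulated WT and 8.89 and 9.35 in unstimulated Rag KO, lower by 1.60 ± 0.26 log2 (SE, 3.02-fold). Stimulated, it measured 8.55 and 8.97 in WT and 8.09 and 7.85 in KO. Its KO arrays lay below the WT arrays in both states, while the partner subunit H2-Oa overlapped when unstimulated (9.90 and 9.69 in WT, 9.55 and 10.21 in KO). Stimulated H2-Oa was higher in KO (8.90 and 9.11) than in WT (8.07 and 7.56). Ciita measured 7.58 and 7.13 in unstimulated WT and 7.79 and 7.74 in KO, and 7.63 and 8.02 against 7.38 and 7.91 when stimulated. It overlapped only in the stimulated state, and KO minus WT was 0.41 ± 0.27 unstimulated and -0.18 ± 0.27 stimulated.

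Without the 2 Rag KO arrays of high granulocyte signal, which leaves 1 KO array per state that is assumed to vary like the others, the unstimulated differences were 1.06 for H2-Aa, 0.91 for H2-Ab1, 1.42 for H2-Eb1, 1.01 for H2-DMb1 and -1.83 for H2-Ob. H2-Oa turned from 0.09 to -0.24. The stimulated differences were 1.67 for H2-Aa, 0.74 for H2-Ab1, 1.14 for H2-Eb1, 1.55 for H2-DMb1, 1.09 for H2-Oa and -0.67 for H2-Ob, and that of Ciita was -0.45. In each state 2 members were then called (H2-Eb1 and H2-Ob unstimulated, H2-Aa and H2-DMb1 stimulated).

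The unstimulated Rag comparison also chose the genes. H2-Ob was called lower there, against 0.0615% of all genes, and 0 members were called higher, against 0.0513% (0.113% in either direction). Arrays of 5 members were higher in KO without overlap (15.9% of all genes) and of 1 lower (12.5%). Leaving out 1 array left 0 members called in 6 of 8 cases; without KO array 1 the called member was H2-Aa (1.77) and without KO array 2 it was H2-Ob. With all 20 arrays in 1 fit 5 members were called, and with only the 2 groups compared 0 were.

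The stimulated Rag comparison had called neither H2-Eb1 nor H2-Ob, and the members were tested in it. That was the condition for testing, so for H2-Eb1 and H2-Ob the lack of a call was fixed beforehand. Their p-values below serve as description only. Of the 8 members, 0 passed the adjusted threshold in limma, against 0.0923% of all genes called higher and 0.0103% lower, or 0.103% in all. At an unadjusted p under 0.05 there were 7 members, of 988 genes in all. H2-DMb1 came nearest, higher by 1.72 ± 0.30 log2 (SE, 3.29-fold, adjusted p = 0.0511), then H2-Aa by 1.47 ± 0.30 (adjusted p = 0.107) and H2-Oa by 1.20 ± 0.28 (adjusted p = 0.19). H2-Eb1 differed by 1.44 ± 0.40 (adjusted p = 0.351), H2-DMa by 0.92 ± 0.27 (adjusted p = 0.447) and H2-Ab1 by 0.82 ± 0.30 (adjusted p = 0.772). H2-Ob differed by -0.79 ± 0.26 (adjusted p = 0.59) and Ciita by -0.18 ± 0.27 (adjusted p = 0.955). The arrays of 6 members were higher in KO without overlap, where 18.1% of all genes were, and those of 1 lower, where 26.2% were. The median change was 1.06 for the members and -0.06 for all genes.

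This count of 0 depended on the fit. H2-Aa, H2-DMb1 and H2-Oa were called without unstimulated KO array 1 or 2, although neither array belongs to the groups compared. With only the 2 groups compared in the fit, 5 of 8 members were called (H2-Aa, H2-Eb1, H2-DMa, H2-DMb1 and H2-Oa), and the same 5 were called with all 20 arrays in the fit.

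**Figure D3:**
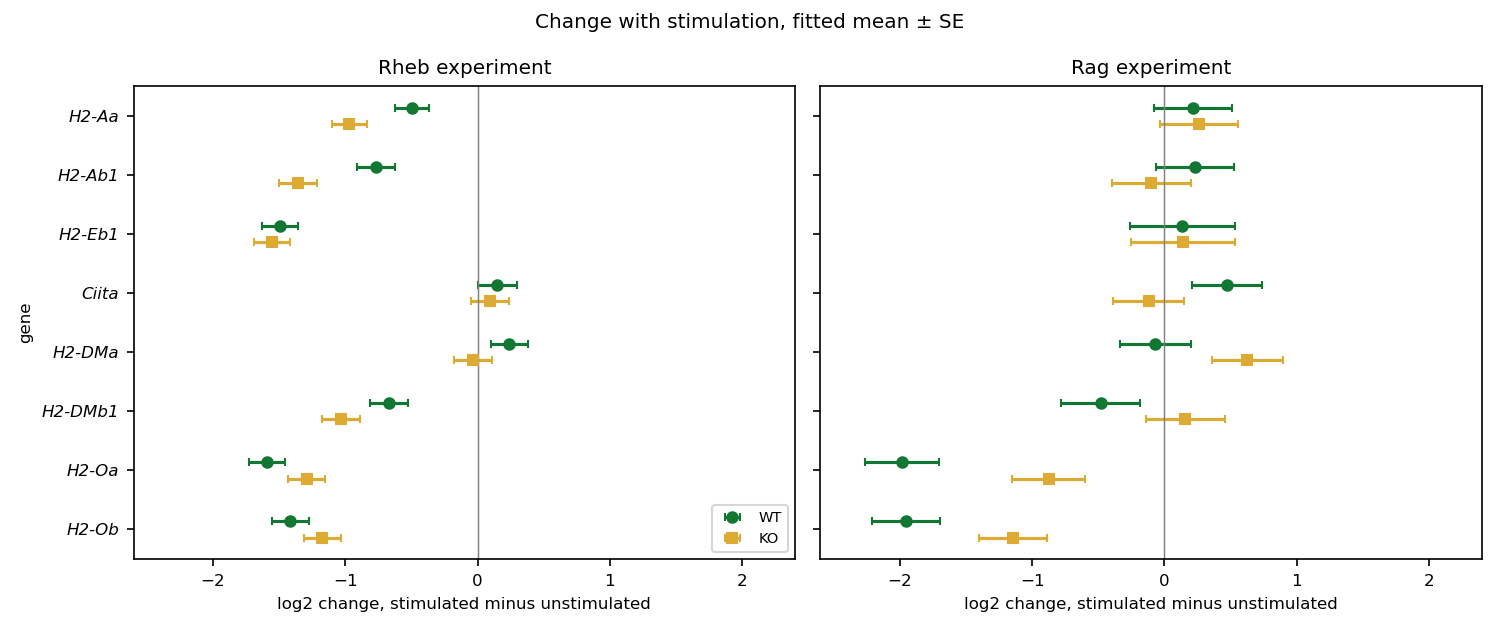
Fitted log2 change, stimulated minus unstimulated (x axis), of each class II gene (y axis) in WT and KO, with SE bars, for each experiment. H2-Oa and H2-Ob lie left of 0 in all 4 comparisons; the chain genes do so in the Rheb experiment, and in the Rag experiment their changes lie between -0.10 and 0.26.

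Both H2-O subunits had lower signals after stimulation in each of the 4 comparisons. In the Rheb experiment H2-Oa was lower by 1.59 ± 0.14 log2 (SE, 3.01-fold) in WT and by 1.29 ± 0.14 (2.45-fold) in KO, and H2-Ob by 1.41 ± 0.14 and 1.17 ± 0.14. In the Rag experiment H2-Oa was lower by 1.98 ± 0.28 in WT and 0.88 ± 0.28 in KO, and H2-Ob by 1.96 ± 0.26 and 1.15 ± 0.26. No stimulated array of either gene reached an unstimulated array of its genotype.

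The chain genes and H2-DMb1 were lower after stimulation in the Rheb experiment. H2-Eb1 differed by -1.50 ± 0.14 (SE) in WT and -1.55 ± 0.14 in KO, H2-Ab1 by -0.77 ± 0.15 and -1.36 ± 0.15, and H2-Aa by -0.49 ± 0.13 and -0.97 ± 0.13. H2-DMb1 differed by -0.67 ± 0.14 and -1.03 ± 0.14. The differences were 0.15 and 0.09 for Ciita and 0.24 and -0.04 for H2-DMa. In the Rag experiment the chain genes overlapped between states in both genotypes, with changes of 0.21, 0.23 and 0.14 in WT and 0.26, -0.10 and 0.14 in KO for H2-Aa, H2-Ab1 and H2-Eb1. All genes together shifted by 0.21 in WT and 0.09 in KO there. After a second quantile normalization those shifts of all genes were 0.04 and -0.03, and H2-Eb1 in both genotypes and H2-Aa in KO turned negative.

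In the Rheb experiment 6 members were called lower in each genotype, against 4.89% of all genes in WT and 5.19% in KO, and 0 were called higher (4.49% and 4.55%). In either direction 9.37% and 9.75% of all genes were called there. In the Rag experiment H2-Oa and H2-Ob were called lower in WT (0.523% of all genes) and H2-Ob in KO (0.123%), and 0 members were called higher (0.477% and 1.2%). In either direction 1% of all genes were called in Rag WT and 1.32% in Rag KO. All of these comparisons called H2-Ob lower and so belong to the choice of the genes. Arrays of 6 members were lower without overlap in each genotype of the Rheb experiment (11.5% and 14.4% of all genes) and of 2 in each genotype of the Rag experiment (10.1% and 13.8%). Higher without overlap were Ciita in Rheb WT (12.9% of all genes) and Rag WT (37.3%) and H2-DMa in Rag KO (31.9%), and 0 members in Rheb KO (13.5%). With all 20 arrays in 1 fit 4 members were called in Rheb WT, without H2-Aa and H2-DMb1, and with only the 2 groups compared 5, without H2-Aa. H2-Aa was also not called in Rheb WT without unstimulated WT array 2 (-0.36) or stimulated WT array 1 (-0.42) or 2 (-0.47). In Rag WT 0 members were called without unstimulated WT array 2, and 1 without stimulated WT array 1 or 2. In Rag KO 0 were called without any 1 array other than unstimulated KO array 1.

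The dependence of the knockout effect on stimulation was fitted as the interaction. The Rheb interaction is the difference of 2 comparisons that chose the genes, and the Rag interaction includes the unstimulated one, which also chose them. The p-values below are therefore not free of that choice and serve as description. In the Rheb experiment limma called 0 of 8 members and 0% of all genes, with 2 members and 1207 genes at an unadjusted p under 0.05. The knockout effect was smaller after stimulation by 0.59 ± 0.21 log2 (SE) for H2-Ab1 (interaction of -0.59, adjusted p = 0.703) and by 0.48 ± 0.18 for H2-Aa (-0.48, adjusted p = 0.741), and differed by -0.05 ± 0.19 for H2-Eb1 (adjusted p = 0.992). In the Rag experiment 0 of 8 members and 0% of all genes were called as well (387 genes, 0 of them members, without unstimulated KO array 2), with 2 members and 1202 genes at an unadjusted p under 0.05. The other members of the Rheb experiment had interactions from -0.36 to 0.30. The 2 members in the Rag experiment were H2-Oa (1.11 ± 0.39, adjusted p = 0.728) and H2-Ob (0.81 ± 0.37, adjusted p = 0.728). The remaining Rag interactions ranged from -0.59 for Ciita to 0.70 for H2-DMa.

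Across arrays, H2-Aa, H2-Ab1, H2-Eb1 and H2-DMb1 followed one another, with Pearson r between 0.88 and 0.95 for every pair in the Rheb experiment (12 arrays) and in the Rag experiment (8 arrays). These correlations are descriptions, since the arrays share groups and normalization. H2-Oa followed H2-Aa in the Rheb experiment (0.85) and less in the Rag experiment (0.28). H2-Ob followed H2-Aa in the Rheb experiment (0.53) and opposed it in the Rag experiment (-0.62). Ciita had r from -0.14 to -0.05 with the chain genes over the Rheb arrays and from 0.24 to 0.47 over the Rag arrays.

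The genes most like the mean of H2-Aa, H2-Ab1 and H2-Eb1 were ranked by the lower of their r over the 12 Rheb and the 8 Rag arrays. Ifitm3, an interferon-induced membrane protein gene, came first (0.96), followed by H2-DMb1 (0.94), Pik3ap1 (0.88), Tmem176a (0.88), Bhlhe40 (0.87), Tle4 (0.87), Grina (0.85) and Mpeg1 (0.84). Ifitm3 had a mean of 9.16 in unstimulated WT and 9.92 in unstimulated Rheb KO, and of 8.18 and 9.10 in the Rag experiment. Mpeg1, which encodes a pore-forming protein of macrophages, had means of 6.79, 7.64, 5.53 and 6.25 in the same groups. Of the other members, H2-Oa had a lower r of 0.31, Ciita -0.12, H2-DMa -0.48 and H2-Ob -0.60.

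**Figure D4:**
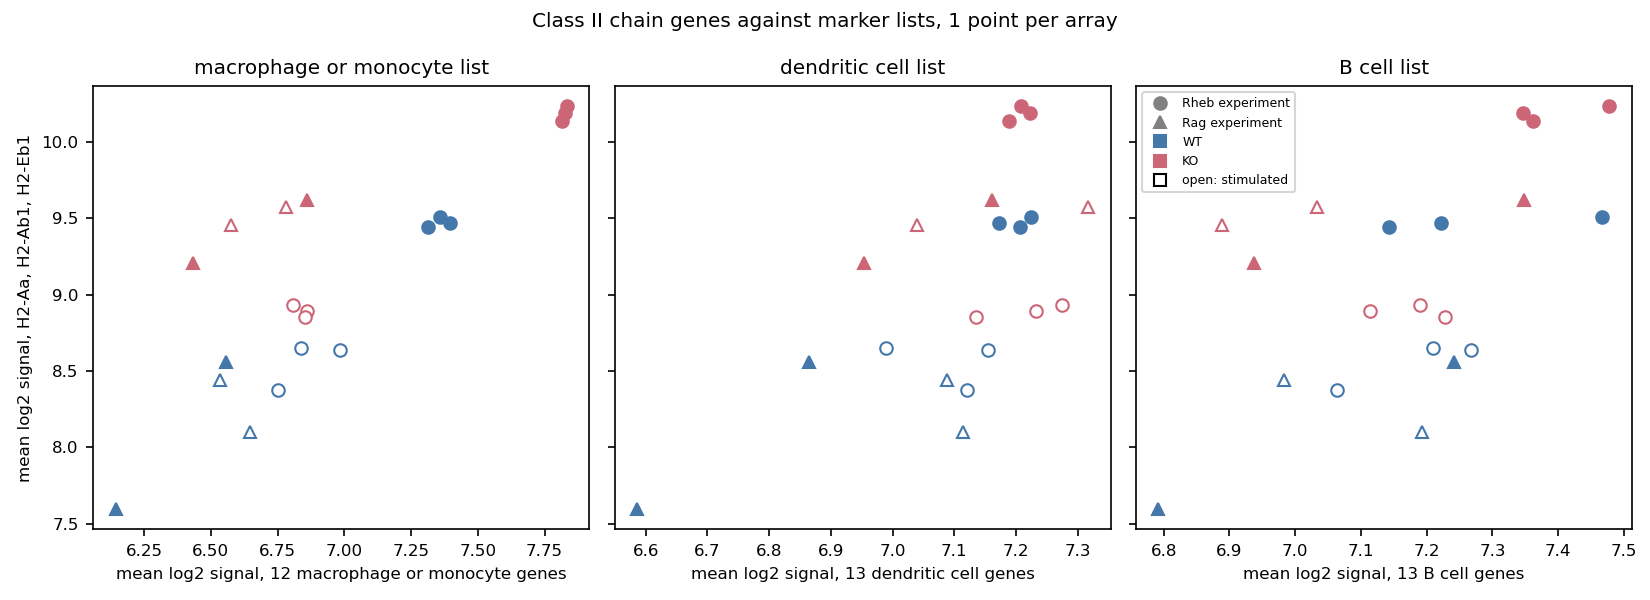
Mean log2 signal of H2-Aa, H2-Ab1 and H2-Eb1 (y axis) against the mean log2 signal of 12 macrophage or monocyte, 13 dendritic cell and 13 B cell genes (x axis), with 1 point per array. In the Rheb experiment the unstimulated KO arrays have the highest values on both axes of the macrophage panel; in the Rag experiment KO and WT arrays are apart on the y axis and overlap on the x axis of the macrophage and B cell panels, while in the dendritic cell panel the unstimulated KO arrays lie right of the unstimulated WT arrays.

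Genes of macrophages, which make class II, were higher with the chain genes in unstimulated Rheb KO. All 12 of 12 measured macrophage or monocyte genes had a higher fitted mean in KO (median difference 0.44). The complement gene C1qa (1.14 ± 0.19, SE), Ms4a7 (0.84 ± 0.16) and the Fc receptor gene Fcgr3 (0.84 ± 0.14) were called. The list mean lay between 7.31 and 7.39 in WT and between 7.81 and 7.83 in KO, while the mean of the 3 chain genes lay between 9.44 and 9.51 and between 10.13 and 10.23. In stimulated Rheb KO the list's median change was -0.06, 0 of 12 were called, and H2-Eb1 was higher by 0.78. With stimulation, 7 of 12 macrophage genes were called lower in Rheb WT (median -0.48) and 8 of 12 in Rheb KO (median -0.71). Below 0 were 10 of 12 in WT and 12 of 12 in KO. The lowest changes were those of the growth factor receptor gene Csf1r in WT (-1.37 ± 0.19) and C1qa in KO (-2.30 ± 0.19). Csf1r, C1qa, C1qb, Ms4a7, Mertk, Lyz2 and Adgre1 were called lower in both Rheb genotypes and Fcgr3 in KO. In the Rag experiment 0 of 12 were called with stimulation. Their medians were 0.335 in WT and 0.026 in KO, against 0.208 and 0.088 for all genes. No gene of the list was brighter than 95% of the negative controls on any array. On all Rheb arrays together 1 of the 12 genes was below the controls' median, and on all Rag arrays together 3 were. Within single groups more were below it on every array. These were 2 and 4 in unstimulated and stimulated Rheb WT, 1 and 7 in Rheb KO, and 4 to 6 in the Rag groups. The part of macrophage RNA in the class II signal was not tested.

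In Rag KO 0 of 12 macrophage genes were called in either state (median 0.24 unstimulated and 0.12 stimulated), where 0.113% and 0.103% of all genes were. Above 0 were 10 of 12 unstimulated and 7 of 12 stimulated. Without overlap, 5 were higher and 1 lower unstimulated (15.9% and 12.5% of all genes). Stimulated, 3 were higher and 2 lower so (18.1% and 26.2%). The list mean lay between 6.14 and 6.56 in unstimulated WT and between 6.43 and 6.86 in unstimulated KO, and between 6.53 and 6.65 and between 6.58 and 6.78 when stimulated. These ranges overlapped, whereas those of the chain genes did not: 7.60 to 8.56 in unstimulated WT and 9.21 to 9.62 in KO, and 8.10 to 8.44 and 9.45 to 9.57 when stimulated. The median r of the macrophage genes with the chain genes was 0.88 over the Rheb arrays and 0.43 over the Rag arrays, against 0.03 and 0.15 for all genes. Within groups, after each group's mean was taken off, it was 0.15 and 0.61, against 0.07 and 0.54 for all genes.

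Genes of B cells, which also make class II, were called in neither knockout. The median change of 13 B cell genes was 0.22 and 0.04 in unstimulated and stimulated Rheb KO, and 0.26 and -0.16 in Rag KO. In unstimulated Rag KO 10 of 13 were above 0, with 5 higher and 0 lower without overlap (15.9% and 12.5% of all genes). In stimulated Rag KO 4 of 13 were above 0, with 1 higher and 4 lower so (18.1% and 26.2%). Their list mean overlapped between the genotypes in unstimulated cells of both experiments (7.14 to 7.47 in WT and 7.35 to 7.48 in KO for Rheb, 6.79 to 7.24 and 6.94 to 7.35 for Rag). No B cell gene was brighter than 95% of the negative controls on any array. The brightest were Ebf1 (mean 7.85 over all arrays) and Cd79a (7.84). With stimulation Bank1 (-0.94 ± 0.24) and Cd22 (-0.82 ± 0.15) were called lower in Rheb KO, where 9 of 13 genes were below 0. In Rheb WT 0 were called and 7 of 13 were below 0. Bank1 had means of 7.08 unstimulated and 6.49 stimulated there.

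Of 13 dendritic cell genes, 0 were called in Rheb KO, and Ccr9, a homing receptor gene that T cells also express, rose in unstimulated Rag KO (1.87 ± 0.32, SE). The integrin gene Itgax, which encodes CD11c, differed by 0.36 ± 0.16 and 0.25 ± 0.16 in Rheb KO and by 0.28 ± 0.23 and -0.02 ± 0.23 in Rag KO. Flt3, a receptor gene of dendritic cells, differed by 0.07 ± 0.19, -0.17 ± 0.19, -0.08 ± 0.24 and -0.29 ± 0.24 in the same order. Both are dim, with group means between 5.46 and 6.99 for Itgax and between 5.56 and 6.18 for Flt3. The list mean in unstimulated cells lay between 7.17 and 7.22 in Rheb WT and between 7.19 and 7.22 in Rheb KO, and was higher in Rag KO (6.95 to 7.16) than in Rag WT (6.59 to 6.87). In unstimulated Rag KO 11 of 13 genes were above 0, with 7 higher and 0 lower without overlap (15.9% and 12.5% of all genes). In stimulated Rag KO 5 of 13 were above 0, with 1 higher and 4 lower so (18.1% and 26.2%). With stimulation Itgax and Ccr9 were called lower in Rheb WT (-0.57 and -1.01) and Rheb KO (-0.69 and -1.14), and Ccr9 in Rag KO (-2.57 ± 0.32). Fscn1 (1.79) and Cd83 (0.43) were called higher in Rheb KO and Cd83 in Rag KO (1.67). Irf8, which stands in this list and in the interferon-gamma list, was called higher in all 4 comparisons (0.57, 1.05, 1.63 and 1.92 in Rheb WT, Rheb KO, Rag WT and Rag KO). On all arrays of an experiment together 3 of the 13 genes were below the median of the negative controls. Within single groups 4 or 5 were below it on every array. The part of dendritic cell and B cell RNA was not tested.

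Granulocyte genes were high on 1 array of each Rag KO state. S100a8, a calcium-binding protein gene of neutrophils, measured 6.15 and 4.18 in unstimulated WT and 5.76 and 8.66 in unstimulated Rag KO, and 5.47 and 4.81 against 5.08 and 8.99 when stimulated. The high values are those of the KO arrays numbered 2, so the genotypes overlapped, and KO minus WT was 2.05 ± 1.06 (SE) and 1.90 ± 1.06. The 5 genes had median differences of 0.36 and 0.66 in Rag KO and 0.04 and 0.02 in Rheb KO, with 0 called. The receptor genes Csf3r and Cxcr2, the brightest of the list, were called in 0 comparisons. The part of granulocyte RNA was not tested.

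NK cell genes stood higher with the chain genes in Rheb KO, although 0 of 6 were called in any knockout comparison. Their mean lay between 6.05 and 6.24 in unstimulated WT and between 6.29 and 6.66 in unstimulated Rheb KO, and between 5.64 and 5.90 and between 5.91 and 6.29 when stimulated, without overlap. The median difference was 0.36 with 5 of 6 above 0, and 0.25 with 6 of 6 above 0. In Rag KO it was 0.52 and 0.26, with overlapping means when unstimulated (5.73 to 5.83 in WT, 5.81 to 6.45 in KO) and not when stimulated (5.26 to 5.47, 5.67 to 5.90). Eomes, a transcription factor gene, and Klrb1c, which encodes NK1.1, were called lower with stimulation in Rheb WT (-1.004 ± 0.19 and -0.90 ± 0.26). In Rheb KO 0 were called with stimulation, and 6 of 6 were below 0. Ncr1, the other bright gene of the list, was called in 0 comparisons. The 6 genes were brighter than 95% of the negative controls on 0 arrays. On all arrays of an experiment together 3 were below the controls' median, and within single groups 3 to 5 were. The part of NK cell RNA was not tested.

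T cell and Treg genes stood lower in Rheb KO as a list. Their mean lay between 11.58 and 11.59 in unstimulated WT and between 11.35 and 11.49 in unstimulated Rheb KO, and between 11.57 and 11.59 and between 11.42 and 11.49 when stimulated, without overlap. Of the 13 genes, 10 and 11 had differences below 0, 5 and 7 of them without overlap (7.08% and 8.8% of all genes were lower so), at medians of -0.12 and -0.10. Lrrc32, which encodes a surface carrier of latent TGF-beta, was called lower in unstimulated Rheb KO (-0.66 ± 0.11, SE), and 0 others were called with a knockout. Cd3e differed by -0.22 to 0.06 and Cd4 by -0.33 to -0.08 in the 4 knockout comparisons. The list means of the genotypes overlapped in Rag cells in both states, at medians of -0.33 and -0.05. With stimulation Tnfrsf4, Tnfrsf18 (both costimulatory receptor genes of Tregs) and Lrrc32 were called higher and Cd4, Cd3d and Cd3g lower in both Rheb genotypes. In Rheb KO Il2ra, Ctla4 and Cd2 were also called higher and Cd3e lower. Without overlap, 6 of the 13 genes were higher and 7 lower in each Rheb genotype, called or not. Of all genes, 12.9% in WT and 13.5% in KO were higher so, and 11.5% and 14.4% lower. In Rag KO Il2ra and Tnfrsf18 were called higher (1.43 and 1.49).

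Of 5 genes of a plasma cell list 0 were called with the knockouts, at medians of -0.05 and 0.01 in Rheb KO and 0.19 and 0.08 in Rag KO. Irf4, which activated T cells also express, rose with stimulation in all 4 comparisons (0.88, 1.25, 2.70 and 2.43 log2 in Rheb WT, Rheb KO, Rag WT and Rag KO). Jchain, the joining chain gene of secreted antibody, was called lower with stimulation in Rheb KO (-1.33 ± 0.36, SE), and Prdm1 was called in 0 comparisons. The CD8 genes Cd8a and Cd8b1 were called in 0 comparisons.

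Few other genes of the class II pathway were called with the knockouts. Of 17 measured co-factors (the RFX and NF-Y subunits that bind the X and Y boxes, endosomal proteases, ubiquitin ligases and the genes H2-Eb2 and H2-DMb2), 0 were called in unstimulated Rheb KO and in either state of Rag KO. The protease gene Ctsh was higher in stimulated Rheb KO (0.63 ± 0.13, SE). Their median changes were 0.11 and 0.05 in Rheb KO and 0.06 and 0.08 in Rag KO. H2-DMb2, a close copy of H2-DMb1 with which it may share probe signal, differed by 0.62 ± 0.18 and 0.47 ± 0.18 in Rheb KO and by 1.56 ± 0.44 and 1.99 ± 0.44 in Rag KO. With stimulation Lgmn, an endosomal protease gene, and H2-DMb2 fell in both Rheb genotypes (-0.83 and -1.31 for Lgmn, -0.88 and -1.03 for H2-DMb2), with 3 of 17 called lower in WT and 5 of 17 in KO, and 0 of 17 in either Rag genotype. The others named by size were Ctss in WT (-0.34) and Ifi30 (-0.62) and Ctsb (-0.54) in KO, all of which act on antigen in endosomes.

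Interferon-gamma, the main cytokine inducer of Ciita in other cells, signals through Ifngr1, Ifngr2, Jak1 and Jak2. Of 9 measured genes of this pathway 0 were called with either knockout in either state, at medians of -0.03 and 0.11 in Rheb KO and -0.19 and 0.58 in Rag KO. In stimulated cells 5 of 9 were higher in Rheb KO without overlap, where 6.75% of all genes were, and 8 of 9 in Rag KO, where 18.1% were. Ifng, the cytokine's own gene, had the highest difference in both (1.41 ± 0.34 and 2.05 ± 0.39, SE, not called). The list mean did not overlap in either (9.73 to 9.88 in WT and 10.04 to 10.16 in KO for Rheb, 9.47 to 9.89 and 10.31 to 10.48 for Rag). With stimulation Ifng itself was called higher in Rag KO (2.78 ± 0.39, SE), as were Jak2, Irf8 and the inhibitor gene Socs1 (1.74, 1.92 and 1.72). In the Rheb experiment 5 of 9 were called higher and 2 lower in WT, and 4 of 9 higher in KO. Ifngr1 was higher by 1.03 ± 0.15 and 1.08 ± 0.15. Socs1 was called higher in both (0.54 and 0.66). Jak2 was called higher in both as well, by 0.55 in KO and with means of 10.61 unstimulated and 11.05 stimulated in WT. Irf1, a target gene of the pathway, was called lower in WT (-0.45). Ifng had means of 8.65 unstimulated and 7.72 stimulated in Rheb WT, 8.13 and 9.13 in Rheb KO, and 7.58 and 7.09 in Rag WT. In both Rheb genotypes the chain genes were lower after stimulation.

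Of 13 measured MHC class I presentation genes, which serve the display of cytosolic peptides to CD8 T cells, 0 were called with either knockout, at medians of -0.10 and -0.03 in Rheb KO and -0.35 and 0.21 in Rag KO. With stimulation Erap1 (0.53 ± 0.11, SE), Tap1 (0.43 ± 0.08) and Psmb9 (0.40 ± 0.11) were called higher and Calr (-0.34 ± 0.09) lower in Rheb KO, and 0 of 13 were called in the other 3 comparisons. The median changes with stimulation were -0.003 and 0.136 in Rheb WT and KO, and 0.107 and 0.652 in Rag WT and KO. In Rag KO 13 of 13 were above 0, at a median of 0.088 for all genes. Of these, 11 were higher without overlap, where 31.9% of all genes were. Of 6 costimulatory ligand genes, Cd274, which encodes PD-L1, was higher in stimulated Rheb KO (0.53 ± 0.11). Icosl differed by 0.98 ± 0.22 and 0.75 ± 0.22 in Rheb KO without being called, and fell with stimulation in both Rheb genotypes (-0.86 ± 0.22 and -1.09 ± 0.22). Cd80 rose in the same comparisons (1.23 ± 0.24 and 0.87 ± 0.24). Cd274 was also called higher with stimulation in Rheb KO (0.74) and Rag KO (1.83), and Cd86 was called lower in Rheb KO (-0.54). Cd274, without being called, had means of 10.04 in unstimulated and 10.83 in stimulated Rag WT.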

How the data were processed

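The authors deposited log2 gene-level signals, and RMA and Affymetrix Expression Console 1.1 are named per the submitters' processing notes; whether the 2 experiments were normalized together is not given in the sources used here, so tests stayed within an experiment. A gene with several probe sets was represented by the one with the highest mean. A model with a mean for every group was fitted per experiment to all 19505 genes (limma 3.58.1, R 4.3.3; two-sided tests), and the script was tested on simulated data. Errors are SE of the fitted log2 change. Nothing in the labels ties the arrays of a group to different animals, and the p-values reflect the spread between samples only, which may be technical. The number of arrays, 3 or 2 per group, limits the precision.

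The members and lists were chosen with earlier results of these data known. A comparison that calls H2-Eb1 higher or H2-Ob lower counted as used in that choice and has no p. The interactions are built in part from such comparisons, and their p-values are given as description. Named were all members, called genes of 4 pathway lists (at most 4 per list and comparison), the 2 brightest and the called genes of 8 marker lists, fixed markers of their cell types and the 8 genes most like the chain genes. The likeness profile was to include Cd74 and rests on 3 genes. S100a8, and H2-DMb2, Icosl and Ifng in the knockouts, were named after their values were seen, as was Ifng with stimulation outside Rag KO. Results were recomputed with each array left out, with the replicate number as a block, with other samples in the fit, after a second quantile normalization, without the 40% of genes of lowest signal, with a trended and robust prior, and with the lowest-mean probe set.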

Additional observations from a re-analysis of the deposited data

Results flagged for a closer look

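The H2-DMa knockout effect in stimulated cells had opposite signs in the 2 experiments, -0.47 log2 in Rheb KO and 0.92 in Rag KO, and in each the KO and WT arrays did not overlap. The difference was not tested, since the experiments may have been normalized apart.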

How the results depend on the processing

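Counts of called members depended most on which arrays shared the variance estimate. With only the 2 groups compared in the fit, 0 members were called in stimulated Rheb KO, 0 in unstimulated Rag KO, 5 in stimulated Rag KO and 0 for stimulation in Rag KO. With all 20 arrays in the fit, the counts were 0 in unstimulated and 0 in stimulated Rheb KO, 5 and 5 in Rag KO, and 2 for stimulation in Rag KO. A second quantile normalization called 3 in unstimulated and 2 in stimulated Rag KO, and 2 for stimulation in Rag KO. Without the 40% of genes of lowest signal, and with a trended and robust prior, 2 were called in each state of Rag KO. Without the 2 Rag arrays of lowest median, a setting chosen after seeing the data, 0 were called in unstimulated and 5 in stimulated Rag KO, and 2 for stimulation in Rag KO. Without the 2 Rag KO arrays of highest granulocyte signal, also chosen after seeing the data, 2 were called in each state of Rag KO and 0 for stimulation in Rag KO. The cause was not tested. The lowest-mean probe set gave the same values, since each member has 1 probe set.

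Replicate numbers were not taken to pair the arrays, as the labels tie them to no shared animal or batch. The 2 Rag KO arrays of high granulocyte signal both carry the number 2, 1 in each state. Whether same-numbered arrays share a source of cells was not tested. The deviations of same-numbered arrays had correlations from -0.18 to 0.178 (Rheb experiment) and from -0.022 to 0.231 (Rag experiment), where the 2 pairs across states had 0.231 in WT and 0.174 in KO and those across genotypes -0.022 and 0.098. With 2 arrays per group both pairs of a comparison have the same correlation, and 3 pairs would be needed to read a pairing from it. With the replicate number as a block, 1 member was called in unstimulated and 0 in stimulated Rheb KO, and 1 in stimulated Rag KO.

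Of the member changes, 16 reversed under an alternative other than leaving out 1 array, all in the Rag experiment. The second quantile normalization gave -0.047 for H2-Eb1 with stimulation in WT, -0.129 for H2-Aa, -0.187 for H2-Eb1 and -0.066 for H2-DMb1 with stimulation in KO, and interactions of -0.224 for H2-Aa and -0.14 for H2-Eb1. Without the 2 arrays of lowest median the values were -0.194 for H2-DMa in unstimulated KO, -0.089, -0.226 and -0.546 for H2-Aa, H2-Ab1 and H2-Eb1 with stimulation in WT, -0.096 for H2-Aa with stimulation in KO and an H2-Aa interaction of -0.006. Without the 2 arrays of highest granulocyte signal they were -0.24 for H2-Oa in unstimulated KO, 0.069 for H2-Ab1 and -0.142 for H2-Eb1 with stimulation in KO and an H2-Eb1 interaction of -0.276.

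With 1 array left out, the number of called members ranged from 0 to 3 in unstimulated and from 0 to 1 in stimulated Rheb KO, from 5 to 6 for stimulation in Rheb WT, from 0 to 1 in unstimulated and from 0 to 3 in stimulated Rag KO, from 0 to 2 for stimulation in Rag WT and from 0 to 1 in Rag KO. It was 6 throughout for stimulation in Rheb KO and 0 for both interactions. The changes that took both signs were small or came from groups of 2. In unstimulated Rheb KO they were Ciita (-0.063 to 0.281) and H2-Oa (-0.047 to 0.137), in stimulated Rheb KO H2-Ab1 (-0.03 to 0.306), with stimulation in Rheb KO Ciita (-0.044 to 0.3) and H2-DMa (-0.121 to 0.016), and in the Rheb interaction H2-Eb1 (-0.194 to 0.112) and Ciita (-0.194 to 0.15). In Rag KO they were H2-DMa (-0.179 to 0.618) and H2-Oa (-0.24 to 0.416) unstimulated and Ciita (-0.446 to 0.085) stimulated. With stimulation in Rag WT they were H2-Aa (-0.089 to 0.516), H2-Ab1 (-0.226 to 0.688), H2-Eb1 (-0.546 to 0.815) and H2-DMa (-0.467 to 0.33). With stimulation in Rag KO they were H2-Aa (-0.096 to 0.614), H2-Ab1 (-0.345 to 0.144), H2-Eb1 (-0.163 to 0.441), Ciita (-0.386 to 0.145) and H2-DMb1 (-0.004 to 0.322). In the Rag interaction they were H2-Aa (-0.309 to 0.401), H2-Ab1 (-0.789 to 0.125) and H2-Eb1 (-0.676 to 0.685). Ciita and H2-DMb1 were brighter than 95% of the negative controls on 0 arrays, which limits what their signals can show.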
